A study of Mus musculus with 24 samples.

Results

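Mouse chromosome 15 held 3839 of the 63425 regions that the authors listed when they compared the promoter mark H3K4me3 between leukemic splenocytes with intact and with knocked-down KDM1A. Every listed region on that chromosome was taken, whatever its score: 1646 were listed for the knockdown alone (KD regions), 98 for the wild type alone (WT regions) and 2095 for both (common regions). The chromosome was picked because earlier results of the same lists had shown its surplus of KD regions. KD regions made up 42.9% of its regions, against 23.4% of all listed regions, and WT regions 2.55% against 8.4%. These shares are the choice itself and serve as description, with no test. The other 18 autosomes, with 58479 regions, are the background for all that follows.

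H3K4me3 marks the start sites of active and poised genes. Narrow marked stretches are usual at ordinary promoters, and the broadest ones tend to sit at genes that define a cell's identity. KDM1A (LSD1) takes methyl groups off mono- and dimethylated H3K4 and does not act on the trimethylated form. Chromosome 15 carries the proto-oncogene Myc, a driver of B-cell growth, and gain of this chromosome is a recurrent finding in lymphoid tumours of mice.

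The cells came from C57BL/6 mice with the Eµ-TCL1A transgene, in which an immunoglobulin enhancer drives the human oncogene TCL1A in B cells and a disease like chronic lymphocytic leukemia follows. Both conditions carry this transgene. The wild-type group had no further treatment and the other group carried a KDM1A knockdown, and the sources used here do not say how the knockdown was made, nor the age or sex of the animals. Per condition 3 biological replicates were run in 2 technical replicates, giving 6 H3K4me3 and 6 input libraries and 24 in all, but the deposited lists compare the conditions as a whole.

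The lists give 1 score per region and no value per library. Depth is therefore unknown, the spread between animals cannot be measured, and no test between the conditions was possible. Intervals are 95% intervals for counting error, which treat regions as independent. The spread over the other 18 autosomes is the second yardstick. The score, in the authors' own units, exceeded 3 in every KD and WT region and stayed below 3 in every common region, where it carries no direction. The labelled cell type could not be checked against marker genes, and no region was placed in a gene, since the gene table at hand is for another build than the GRCm39 of the lists. No sequence is shown for the same reason.

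The surplus of KD regions on chromosome 15 came with a deficit of WT regions. KD regions numbered 78.6 per 100 common regions (95% Poisson interval 74.8 to 82.5), 2.42 times the pooled value of 32.4 on the other autosomes. WT regions numbered 4.68 per 100 (3.798 to 5.70), 0.377 times the pooled 12.4. Chromosome 15 ranked first of 19 autosomes in the first measure and last in the second. The autosome nearest to it on both counts was chromosome 19, with 40.8 KD and 8.22 WT regions per 100 common regions. By covered length the KD value stood further from the other autosomes and the WT value nearer to them. KD regions covered 973 kb of chromosome 15, equal to 35.4% of the length of its common regions, whereas the other autosomes lay between 7.38 and 12.6%. WT regions covered 2.54% of that length, against 2.77 to 6.84% on the others. At the rate of the other autosomes, chromosome 15 would have held 679 KD regions, so the excess came to 967. This number depends on the common region as unit, and common regions were shorter here (median 742 bp, against 873 bp elsewhere). It also counts neighbouring KD regions singly. With KD regions joined within 1 kb, the density was 49.6 per 100, against a median of 23.9 on the other autosomes (18.7 to 28.8).

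The first question was whether this excess was spread along the chromosome or gathered at a few places. It was spread. Of 43 windows of 2 Mb with any region, 34 held at least 10 common regions, and these are the windows compared. They contained 1605 of the 1646 KD regions. KD regions per 100 common regions had a median of 75 over these windows (quartiles 63.8 and 86.4), against 28 (17.6 and 40) over 821 windows of the other autosomes. The density exceeded the upper quartile of the other windows in 30 of 34 windows (88.2%), where 24.5% of the other windows did so. A density above the chromosome 15 median was seen in 15 of the 821 other windows (1.83%).

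**Figure D1:**
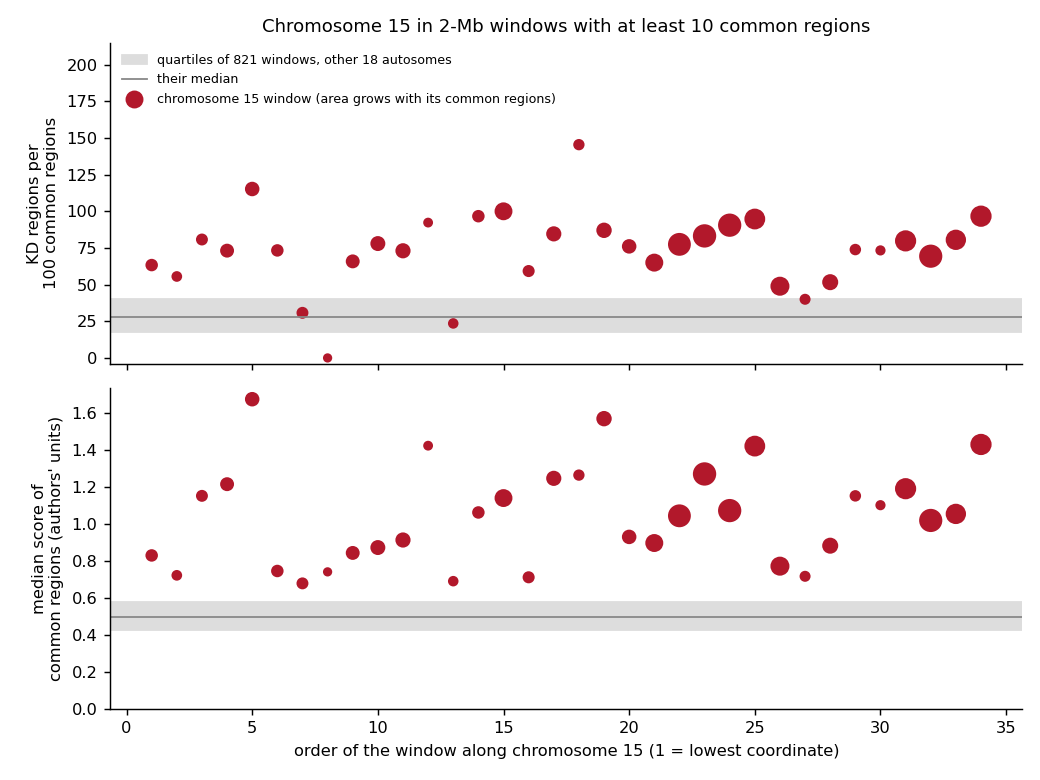
KD regions per 100 common regions (top) and the median score of common regions (bottom) in the 34 windows of 2 Mb of chromosome 15 with at least 10 common regions, in their order along the chromosome; point area grows with the number of common regions, and the grey band and line are the quartiles and median of 821 windows of the other autosomes. In the top panel 30 windows lie above the band, and in the bottom panel 34 of 34 do.

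No single window carried the excess. The window with the largest excess, at 80 to 82 Mb, held 134 KD, 4 WT and 148 common regions and made up 8.90% of it. The 5 windows with the largest excess made up 38.7% of it and held 32.1% of the common regions. Without these 5 windows, a choice made after the data were seen, the density of the rest was 74.1 per 100. Leaving out each window in turn moved it between 77.5 and 79.9.

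Cut into 10 stretches of equal numbers of common regions, the chromosome had no stretch free of the excess. The stretches held 132 to 182 KD regions per 209 or 210 common regions. The lowest densities were 63.2 per 100 in the stretch from 85.9 to 97.3 Mb and 69.0 in that from 31.3 to 53.2 Mb. The highest were 87.1 from 78.9 to 81.7 Mb and 86.1 in the last stretch, from 100.4 Mb to the end. The lowest stretch still lay above the highest whole autosome, chromosome 19.

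The windows with the highest densities were not the most densely marked ones. They lay at 64 to 66 Mb (32 KD and 22 common regions, 145.5 per 100), at 24 to 26 Mb (53 and 46, 115.2 per 100) and at 58 to 60 Mb (79 and 79, 100 per 100). Grouped by the number of common regions they held, windows with 10 to 19 had a pooled density 2.07 times that of other autosomal windows of the same class. The ratio was 2.63 for 20 to 49, 2.23 for 50 to 99 and 2.17 for 100 or more common regions. In the last class, the 8 windows of chromosome 15 lay between 69.4 and 96.7 per 100, and the highest of 69 windows elsewhere reached 63.9. The 9 windows with fewer than 10 common regions held 41 KD and 9 WT regions in all, 85.4 KD regions per 100 common regions against 27.0 in such windows elsewhere.

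The exceptions were few and mostly sparse. Densities at or below the upper quartile of the other autosomes were found at 32 to 34 Mb (no KD, 1 WT and 10 common regions), 54 to 56 Mb (4 KD, no WT and 17 common), 30 to 32 Mb (8, 2 and 26) and 86 to 88 Mb (8, 1 and 20). The stretches with the most common regions and no KD region, 16 each, ran from 31226559 to 31418914 and from 31603987 to 34080616. On the other autosomes the longest such run held a median of 36.5 common regions (24 to 49), so chromosome 15 had the shortest longest run of all 19. A higher density of KD regions shortens such runs by itself, so this is no separate evidence of an even spread. The longest distance between neighbouring KD regions, 12.9 Mb from 12865680 to 25731359, contained a single common region. The 5 longest such distances contained 0 to 7 common regions each, so they were poor in shared marks as well. The one with 7 common regions, from 89384901 to 92242246, also held 5 WT regions.

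The score of common regions was raised against the other autosomes in every window compared, also in the 4 exceptional windows, but was not even along the chromosome. Over the 34 windows the median score of common regions ranged from 0.679 to 1.68, and 34 of 34 lay above the upper quartile of the other windows (0.579; median 0.498). In the windows at 30 to 32, 32 to 34, 54 to 56 and 86 to 88 Mb it was 0.679, 0.741, 0.691 and 0.717, higher than in 91.0, 94.4, 91.6 and 92.8% of the other windows. Within chromosome 15, however, all 4 lay below the lower quartile of its windows (0.833, with a median of 1.05 and an upper quartile of 1.21). The windows of the other autosomes were spread less widely, with quartiles of 0.427 and 0.579. A common region's score has no sign, so these values say that common regions of chromosome 15 lay nearer to the threshold of 3, not in which direction.

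Scores of common regions were shifted as a whole. Of the 2095 common regions, 15.9% scored below 0.5 (95% Wilson interval 14.4 to 17.6%), against 49.3% on the other autosomes (range 41.6 to 55.3%). Scores of 2 or more were found for 13.9% (12.5 to 15.4%), against 3.81% (2.72 to 5.26%). The shift was not confined to common regions with a one-sided neighbour. Common regions in contact with neither a KD nor a WT region had a median score of 0.732 on chromosome 15 and of 0.376 to 0.444 on the other autosomes.

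The second question was whether the excess depended on the length of the common region that a KD region touched. A common region counted as touched if a KD region overlapped or abutted it. On chromosome 15, 1206 of 2095 common regions (57.6%) were touched, against 19.9% on the other autosomes, whose highest value was 28.2% on chromosome 19. Expressed as a ratio to the other autosomes, contact depended little on length. Among common regions under 500 bp, 394 of 782 (50.4%, 46.9 to 53.9%) were touched, against 16.5% elsewhere, a ratio of 3.05. The ratio was 2.78 for 500 to under 1000 bp (63.7 against 22.9%), 2.88 for 1000 to under 2000 bp (62.3 against 21.6%) and 3.02 for 2000 to under 4000 bp (59.9 against 19.8%). Among the longest, of 4000 bp or more, 70 of 119 (58.8%, 49.8 to 67.3%) were touched, against 22.9% elsewhere, a ratio of 2.57. In each of the 5 classes chromosome 15 lay above the highest of the other 18 autosomes, whose maxima ran from 25.3% for the shortest to 32.5% for the longest class.

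**Figure D2:**
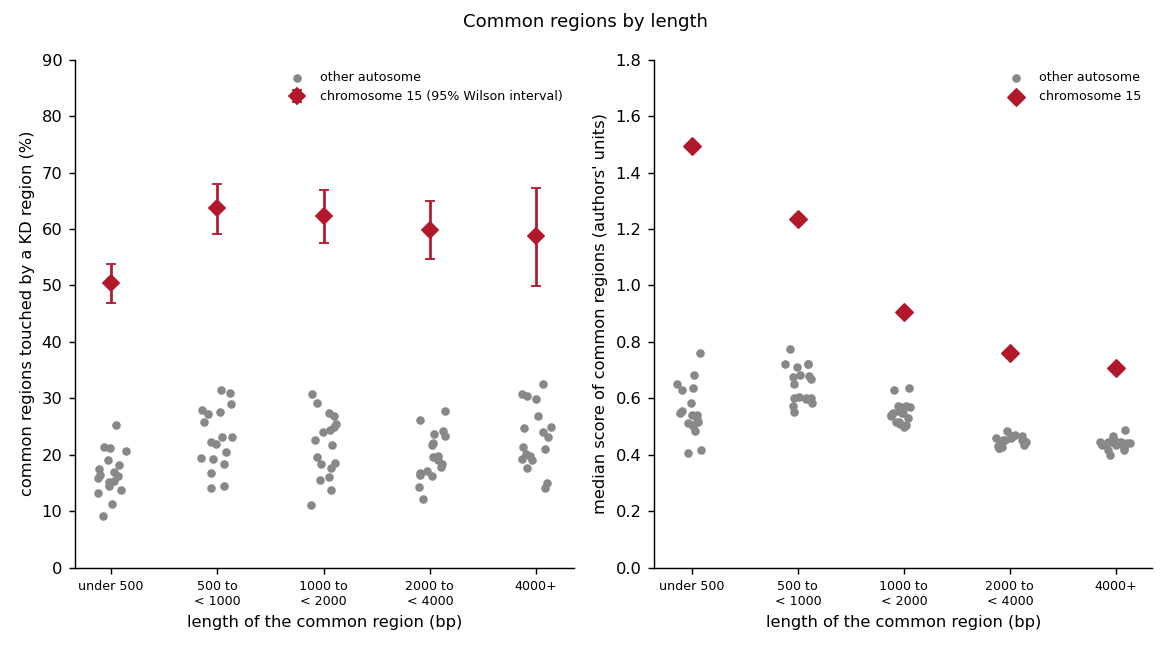
Share of common regions touched by a KD region (left, with 95% Wilson intervals for chromosome 15) and median score of common regions (right) by the length of the common region, with 1 grey point for each of the other 18 autosomes. On the left chromosome 15 lies between 50.4 and 63.7% in the 5 classes; on the right its distance to the other autosomes shrinks from the shortest class (1.496) to the longest (0.707).

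Counting contacts in place of touched regions gave ratios that were somewhat higher for long common regions. There were 63.4 contacts per 100 common regions under 500 bp on chromosome 15 and 19.8 elsewhere, a ratio of 3.20, and 103.4 against 28.7 for 4000 bp or more, a ratio of 3.60. The score behaved in the opposite way and parted most among short regions. The median score of common regions under 500 bp was 1.496 on chromosome 15 and 0.544 elsewhere, a difference of 0.952, and for 4000 bp or more it was 0.707 against 0.441, a difference of 0.266. The length of the touched common region had a median of 1305 bp for KD regions of chromosome 15 (quartiles 603 and 2531 bp) and of 1419 bp (625 and 3105 bp) elsewhere.

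Long unbroken common regions were scarcer on chromosome 15. Common regions of 4000 bp or more made up 5.68% of its common regions, the lowest share of 19 autosomes (8.25 to 11.4% on the others), and its median common length of 742 bp was the lowest as well. Lengths of joined domains differed by kind. When regions of all 3 lists within 1 kb were joined, domains holding a common region had a median length of 2824 bp on chromosome 15 and 2402 bp elsewhere, and 36.0% against 30.3% reached 4000 bp. The joining counts KD regions in, so a KD region can lengthen a domain or bridge its pieces, and how much of the difference this makes was not tested. Domains of common regions alone were shorter on chromosome 15, with a median of 1177 bp against 1742 bp, and those with both KD and WT regions as well (6262 against 7184 bp). The other kinds had longer medians on chromosome 15. Domains of common and KD regions reached 3892.5 against 3697.5 bp. The 33 domains of common and WT regions, which hold no KD region, reached 3851 against 3172.5 bp. Domains of WT regions alone reached 733 against 608 bp, and those of KD regions alone are given below. Domains of 4000 bp or more held on average 3.43 common pieces on chromosome 15 and 2.72 elsewhere, and 289 of 352 (82.1%, 77.8 to 85.8%) held a KD region, against 41.3% elsewhere.

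Counted as domains, 373 of the 1208 on chromosome 15 (30.9%, 28.3 to 33.5%) consisted of common regions alone, against 55.7% elsewhere (range 50.1 to 60.3%). Domains of common and KD regions made up 44.5% (41.8 to 47.4%) against 19.3%, and domains of KD regions alone 17.0% (14.96 to 19.2%) against 9.80%. Domains of WT regions alone numbered 24, or 1.99% (1.34 to 2.94%), against 4.11% elsewhere. The median domain of KD regions alone was 502 bp long on chromosome 15 and 375.5 bp elsewhere.

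The third question was how KD regions lay relative to common ones. The lists share sequence: 62.7% of KD regions on chromosome 15 overlapped a common region by at least 1 bp, as did 48.1% elsewhere, and 186 kb of the 973 kb of KD sequence was also listed as common. Contact of any kind was found for 1121 of 1646 KD regions (68.1%, 65.8 to 70.3%), above the highest other autosome (59.7%). The remainder comprised 228 regions at a gap of 1 to 1000 bp (13.9%, against 20.4% elsewhere), 140 at over 1000 to 5000 bp (8.51 against 11.9%) and 157 over 5000 bp away (9.54%, 8.21 to 11.1%, against 14.7%).

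The smaller shares of the distant classes do not mean fewer such regions. Per 100 common regions, KD regions of every class were more frequent on chromosome 15 than on each of the other autosomes, but by different factors. Regions that overlapped a common region in part, the most frequent class, numbered 37.9 per 100 (35.4 to 40.7) against 12.2, a ratio of 3.11. Regions inside a common region numbered 8.69 against 2.63 (ratio 3.30), regions that held a whole common region 2.63 against 0.753 (3.49), and abutting regions 4.25 against 1.58 (2.69).

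Without contact the factors were smaller. The ratio was 1.64 at 1 to 1000 bp (10.9 against 6.63 per 100), 1.73 at over 1000 to 5000 bp (6.68 against 3.87) and 1.58 over 5000 bp away (7.49 against 4.76). In the last class the interval of chromosome 15 (6.37 to 8.76) included the highest other autosome (7.33). KD regions in contact with a shared mark were thus 2.69 to 3.49 times as dense as elsewhere, and those without contact 1.58 to 1.73 times. The difference between these factors was not tested, since the chromosome was chosen by the same lists.

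**Figure D3:**
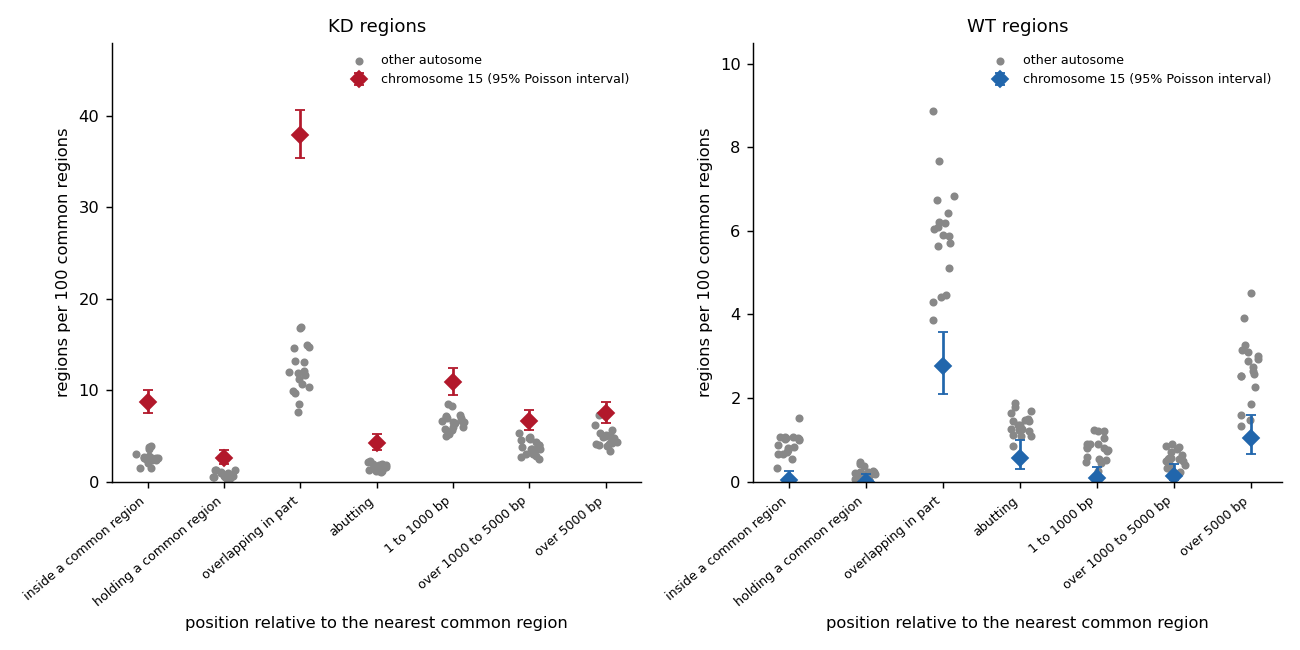
KD regions (left) and WT regions (right) per 100 common regions, by position relative to the nearest common region; diamonds are chromosome 15 with 95% Poisson intervals for counting error and grey points the other 18 autosomes. KD regions that overlap a common region in part stand at 37.9 per 100, against 16.9 on the highest other autosome, and WT regions of that class at 2.77, below the lowest.

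KD regions flanked common regions on both sides more often on chromosome 15. Of the 1206 touched common regions, 346 (28.7%, 26.2 to 31.3%) had a KD region at each end, against 17.2% elsewhere, where the highest autosome reached 20%. Contact at the end with the lower coordinate alone was found for 368 and at the other end alone for 366, so neither side was preferred. Contact inside alone was found for 64, and 62 lay wholly within a KD region. Seen per common region, flanking on both sides was 4.83 times as frequent as elsewhere, and flanking on a single side 2.45 and 2.46 times. A higher rate of contact at each end gives more flanking on both sides by itself. These values therefore do not show a preference for both sides, and whether flanking went beyond the rate of contact was not tested.

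KD regions of chromosome 15 differed little from the others in strength. Their median score was 4.598 (quartiles 3.89 and 5.71), against 4.47 elsewhere, and their median length 364.5 bp (278 and 601 bp) against 339 bp. The ratio per 100 common regions was 2.26 for scores of 3 to 4, 2.29 for 4 to 5, 2.96 for 5 to 8, 2.09 for 8 to 10 and 1.86 for 10 or more. The excess was thus widest at scores of 5 to 8, with 522 KD regions, and narrowest among the 72 strongest, whose 3.44 per 100 (2.69 to 4.33) lay just above the highest other autosome (3.33).

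**Figure D4:**
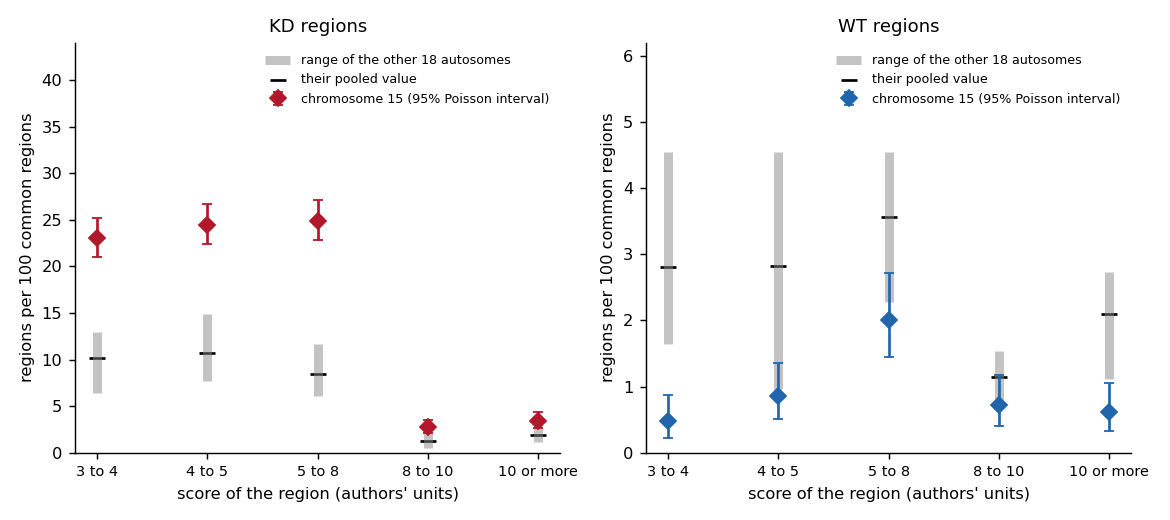
KD regions (left) and WT regions (right) per 100 common regions by score class, with chromosome 15 as diamonds with 95% Poisson intervals for counting error, the range of the other 18 autosomes as grey bars and their pooled value as black dashes. KD regions of chromosome 15 stand clear of the bars for scores up to 8; WT regions of chromosome 15 lie below the pooled value in each class.

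Most of the strongest KD regions lay at shared sites, as did the KD regions of the chromosome at large. Of the 10 with the highest scores, 7 touched a common region, near the 68.1% of all its KD regions. Of these 7, 5 abutted it without overlap, a class that held 5.41% of all its KD regions. The highest scored 37.4 and spanned positions 68234551 to 68235026, in part over a common region of 2330 bp. The next lay at 88618137 to 88618446 (score 33.3) and at 28025489 to 28025773 (27.2), each in contact with a common region. The 10 were 264 to 1861 bp long, beside a median of 364.5 bp for all KD regions of the chromosome.

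Of the other strong KD regions, 3 touched no common region. They spanned 77392619 to 77393181 (score 26.6, 86.3 kb from the nearest common region), 41309857 to 41311717 (24.6, 164.5 kb away) and 38553137 to 38553823 (21.9, 7.78 kb away). The 4 that remain, with scores of 22.3 to 24.2, abutted common regions and began at 93233978, 82847538, 10470456 and 96184619. None of the strongest 10 was among the longest. The 3 longest KD regions were 7012 bp at 103158804 to 103165815 (score 13.5, 6.09 kb from a common region), 6841 bp at 36782930 to 36789770 (5.95, overlapping a common region) and 6267 bp at 82034317 to 82040583 (6.98, holding a common region whole).

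The last question was where the 98 WT regions lay. They were thinly spread rather than gathered: they fell into 34 of the 43 windows, and the fullest window, at 98 to 100 Mb, held 12 beside 102 KD regions. From 96 Mb to the end there were 27 of them (27.6%), beside 23.6% of the common regions. Before the first common region of the chromosome lay 2 WT regions, and 5 windows with at least 10 common regions had none. Among the 34 such windows, WT regions outnumbered KD regions in 1, at 32 to 34 Mb, by 1 to 0. Windows with fewer common regions in which they did so lay at 2 to 4 Mb and at 90 to 92 Mb. The former held 2 WT, 0 KD and 0 common regions, and the latter 3 WT, 0 KD and 3 common regions.

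WT regions were below the pooled density of the other autosomes in every position class, and those within common regions were nearly absent. Of the 98, 71 (72.4%, 62.9 to 80.3%) touched a common region, 2 lay within 1000 bp of one, 3 at over 1000 to 5000 bp and 22 (22.4%, 15.3 to 31.7%) over 5000 bp away. A single WT region (1.02%, 0.180 to 5.56%) lay inside a common region, against 7.10% elsewhere. None of the 98 held a common region whole. With 3 counts as the limit for a count of 0, a share of up to 3.06% is allowed, and the Wilson limit is 3.77%. Both limits include the 1.62% found elsewhere. As a count per 100 common regions, the upper limit for this class was 0.176, below the pooled 0.201 elsewhere. Single other autosomes ranged from 0.0364 to 0.479. Per 100 common regions, WT regions inside common ones stood at 0.0477 (0.00121 to 0.266) against 0.882 elsewhere, a ratio of 0.0541 that rests on this 1 region. The ratio was 0.467 for partial overlap and 0.394 for regions over 5000 bp away.

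The WT deficit was deepest at common regions under 500 bp and in the lowest score class, but did not shrink steadily with score. WT regions touched 2.56% (1.66 to 3.92%) of common regions under 500 bp, against 7.34% elsewhere, a ratio of 0.349. For common regions of 2000 to under 4000 bp it was 9.59% (6.91 to 13.2%) against 16.5%, a ratio of 0.583. Among those of 4000 bp or more, 9 of 119 (7.56%, 4.03 to 13.8%) were touched, and the 9.20% found elsewhere lies within that interval. Over all lengths, WT regions touched 5.82% of common regions on chromosome 15 and 12.5% elsewhere. By score, the ratio was 0.170 for 3 to 4 (10 regions), 0.305 for 4 to 5, 0.563 for 5 to 8, 0.626 for 8 to 10 and 0.297 for 10 or more (13 regions). The median WT score was 6.15 on chromosome 15, the highest of 19 autosomes (4.92 to 5.73 on the others).

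The strongest WT region lay far from common and KD regions, but not from other WT regions. It spanned positions 38865480 to 38873781, 8302 bp, with a score of 40.8, and was longer and stronger than any KD region of the chromosome. The nearest common region lay 99.8 kb away. Within 100 kb of it were no KD region and 1 other WT region, at 38882903 to 38883130. Within 250 kb were 3 KD, 13 common and, itself counted, 3 WT regions. Of the 13 WT regions scoring 10 or more, 6 lay over 5000 bp from a common region.

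**Figure D5:**
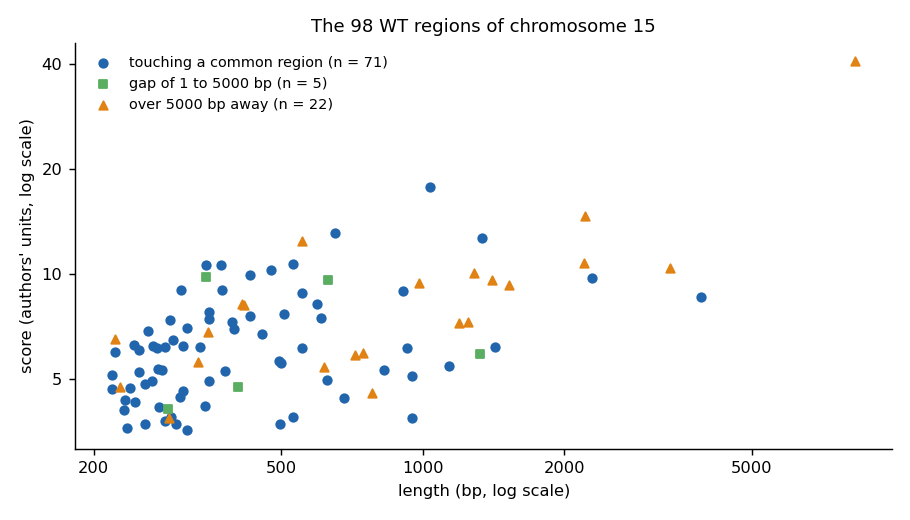
Length and score, both on log scales, of the 98 WT regions of chromosome 15, by their distance to the nearest common region. A single region of 8302 bp with a score of 40.8 stands apart from the rest, none of which exceeds 17.8.

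The remaining strong WT regions were far weaker. The second scored 17.8 and overlapped a common region at 93493190 to 93494223, and the third scored 14.7 at 102942313 to 102944528, 19.5 kb from a common region. The 7 after them scored 10.6 to 13.1, with 5 in contact with a common region. The 2 of these 7 without contact lay at 88943948 to 88944501 (12.4) and 99715862 to 99718066 (10.8).

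Strings of at least 3 WT regions with gaps of at most 100 kb numbered 5, and they were small. They held 3 or 4 WT regions each and covered 1008 to 3491 bp. In 2 of them no KD region was listed. The first, from 99715862 to 99789832, held 4 WT and 2 common regions, and the second, from 101753932 to 101769114, held 3 WT regions and 1 common region. The 3 others, starting at 75781609, 97144892 and 98673763, were interspersed with 1, 14 and 8 KD regions. The median gap from a WT region of chromosome 15 to the nearest KD region was 27.2 kb, against 95.6 kb elsewhere, where KD regions were less dense. Within 1 kb of a KD region lay 14 of 98 (14.3%, 8.70 to 22.6%), against 2.61% elsewhere.

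Neither a difference in the number of copies of chromosome 15 between the cells of the 2 conditions nor change at single sites was tested. The lists hold no value of the input libraries and none per animal, so copy number, enrichment and the knockdown cannot be told apart here. Which of the 3 biological replicates contributed to the excess is likewise unknown from these lists.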

How the data were processed

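H3K4me3 ChIP-seq lists were analysed as deposited. The submitters' processing notes name MACS2 2.2.6, SAMtools 1.6 and Bowtie2 2.2.9 with the build GRCm39, and no source used here states settings, filters or pooling. The authors deposited 1 score for each region, left undefined by the file headers. It was used to rank and filter regions within a list. The layout resembles that of the differential mode of MACS2, which neither headers nor labels name.

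Positions are 1-based. Contact means overlap or abutting (a gap of 0 bp). Windows of 2 Mb took regions by their midpoint. Domains joined regions of the 3 lists within 1 kb. Intervals are Wilson for shares and exact Poisson for counts per 100 common regions, with Python 3.11.15, pandas 2.3.3, numpy 2.4.6, scipy 1.17.1 and matplotlib 3.10.9. Gap, contact and domain code was tested on 2000 simulated regions and recovered 100% of the gaps, contacts and number of domains built into them. Regions on X, Y and unplaced contigs were left out.

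The members, measures and lists were chosen with earlier results of these data known. Regions named are the top 10 of the KD list and of the WT list by score, the 3 longest KD regions, strings of WT regions, and 3 windows each from the top and the bottom by density. The windows at or below the quartile, the ends of contact, the domains and the stretches without KD regions were added later. The planned gene lists, cell markers and sequences were not analysed here, for want of an annotation of the build. Alternatives were score, length and window settings, other reaches of contact, joined regions and covered length.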

Additional observations from a re-analysis of the deposited data

How the results depend on the processing

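Chromosome 15 lay beyond the other 18 autosomes, on the same side as in the main setting, under 37 of 37 alternatives that could be set against them. The alternatives cut the same lists by which the chromosome was chosen, so this count is no independent support. Of 43 alternatives, 9 stayed within the counting interval or within 1.5 times the reported count, and 34 did not. Part of this follows from the definitions. Limits on score and length, and joining of KD and WT regions, left the common regions as they were, so counts per 100 could only fall. Covered length is a percentage of length, and windows of 5 Mb are fewer. For the remaining moves the cause was not tested. The KD share of KD and WT regions was 94.4% over all scores and lengths. It was 90.3% with a score of at least 5, 91.8% with regions joined within 1 kb and 84.7% with a score of at least 10. KD regions per 100 common regions, 78.6 as reported, were 31.1 with a score of at least 5, 25.8 with a length of at least 500 bp, 49.6 with joined regions, 35.4 by covered length, 3.44 with a score of at least 10 and 74.1 without the 5 windows with the largest excess. WT regions per 100 were 3.34 with scores from 5, 1.81 with lengths from 500 bp and 2.54 by covered length. Windows of 5 Mb above the quartile numbered 17 of 17. The touched share of common regions of 2000 bp or more, 59.6%, was 21.4% (score), 67.8% (within 1 kb), 70.3% (joined common regions), 18.8% (length) and 50.3% (overlap of at least 1 bp). That of common regions under 1000 bp, 55.2%, was 21.5, 65.7, 36.9, 28.8 and 49.1% in the same order. The share of KD regions touching a common region, 68.1%, was 51.3% (score), 72.6% (length), 71.0% (covered length), 82.0% (within 1 kb) and 62.7% (overlap), and that over 5 kb away, 9.54%, was 17.7% (score), 11.3% (length) and, over 10 kb, 5.89%. The median score of common regions, 1.06, was 0.795 from 1000 bp, 0.732 without touched regions and 0.995 without the 5 windows. A score of at least 10, overlap alone and leaving out the 5 windows were chosen after seeing the data. No paired analysis was possible because no list gives a value for a replicate, and no replicate could be left out. What depth limits cannot be stated.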
